A study of Sus scrofa with 28 samples.

Results

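Zinc finger factors of the loin muscle were followed in piglets of 2 genetic types. The members were the probe sets of the study's list of 310 regulatory factors whose human gene symbol starts with ZNF, ZBTB, ZFP, ZFHX, ZHX, ZEB, ZSCAN, ZKSCAN, ZIC, ZFX or ZMY, with ZFP36L1 left out. This gave 33 probe sets for 33 symbols, out of 310 factors and of 5226 probe sets in the deposited table. The comparison was of 14 male DU×IB piglets, from Duroc boars and Iberian sows, with 14 male IB piglets, both of whose parents were Iberian. All 28 piglets were suckled by their mothers and killed at 28 days of age, and RNA of the longissimus dorsi was hybridized to 1 porcine Affymetrix array per piglet. By the study's methods the piglets were drawn from several litters, with the crossbred litters much fewer than the purebred ones, so that DU×IB piglets in particular include littermates. Which piglet came from which litter is not known here, and every test, SD and correlation below takes the 14 piglets of a type as independent, which they are not fully. The samples are whole muscle, so fewer cells of a type and less RNA per cell cannot be told apart.

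Zinc finger proteins of the C2H2 kind hold a zinc ion in each finger and read DNA with a row of such fingers, and they form one of the largest families of DNA-binding proteins in mammals. Many carry a further domain that decides what they do once bound. The KRAB domain recruits the corepressor TRIM28 and with it histone methylation, the BTB domain pairs the protein and binds corepressors with histone deacetylases, and the SCAN domain joins family members to each other. In fat and muscle tissue the family is best known for ZNF423, whose mouse counterpart commits cells to the preadipocyte lineage.

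By architecture of the human proteins, 13 members carry KRAB (ZFP30, ZNF133, ZNF184, ZNF250, ZNF282, ZNF300, ZNF317, ZNF33B, ZNF354A, ZNF547, ZNF558, ZNF582 and ZNF699) and ZNF192 and ZNF445 carry SCAN with KRAB. The BTB members are ZBTB1, ZBTB20, ZBTB33, ZNF131 and ZNF295. Another 9 have C2H2 fingers without these domains (ZFP64, ZNF142, ZNF146, ZNF148, ZNF271, ZNF277, ZNF423, ZNF524 and ZNF593). ZHX1 and ZHX2 join zinc fingers to homeoboxes. ZMYND11 has a MYND finger and reads a methylated histone variant, and ZFP36L2 has CCCH fingers and binds AU-rich elements of mRNA, so these last members are not sequence-specific C2H2 factors. The symbols are human names given by the study. The array annotation named 10 of the 33 probe sets, 5 of them with the same symbol and 5 with another: LOC100739425 for ZFP30, LOC100520389 for ZNF192, ZNF397 for ZNF271, TRAPPC2 for ZNF547 and ZNF566 for ZNF699. Values of those 5 are given under the study's name and may belong to the other gene.

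The arrays fell into 2 hybridization series, the arrays numbered 1 to 8 of each type (16 arrays) and those numbered 9 to 14 (12 arrays). The mean of 3 bacterial spike-in probe sets was between 8.69 and 9.44 on the log2 scale in the first series and between 5.55 and 6.55 in the second. Array medians over all probe sets lay between 6.00 and 6.71 in the series of 16 and between 6.88 and 7.05 in the series of 12, with the lowest in DU×IB piglet 3 (6.24) and IB piglet 3 (6.00). Of the 33 members, 28 were lower in the series of 16, with a median shift of -0.71, beside 68.56% of all probe sets and a median of -0.57. The shift ran from -1.47 for ZBTB1 to 1.33 for ZNF524, larger than any difference between the genetic types among the members. The series was therefore kept as a block in the main test of types. Ranges, medians and counts of piglets against an IB median pool both series unless a series is named. None of the 15 muscle fibre genes listed for a check of the tissue was named in the table, so the tissue label was not checked on them.

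No zinc finger factor differed between the genetic types in the test across all probe sets. With limma and the series as a block, 0 of the 33 members passed an adjusted p of 0.10, beside 145 of 5226 probe sets (2.77%). At an unadjusted p under 0.05 there were 2 members, ZFP30 and ZNF133, beside 13.8% of all probe sets. The members' differences were small in both directions. They ran from -0.50 to 0.45 on the log2 scale with standard errors between 0.13 and 0.30, 14 were positive and 19 negative, and 22 were under 0.2 in size. Their median was -0.03, against 0.02 over all probe sets. The ranges of DU×IB and IB piglets overlapped for all 33.

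**Figure D1:**
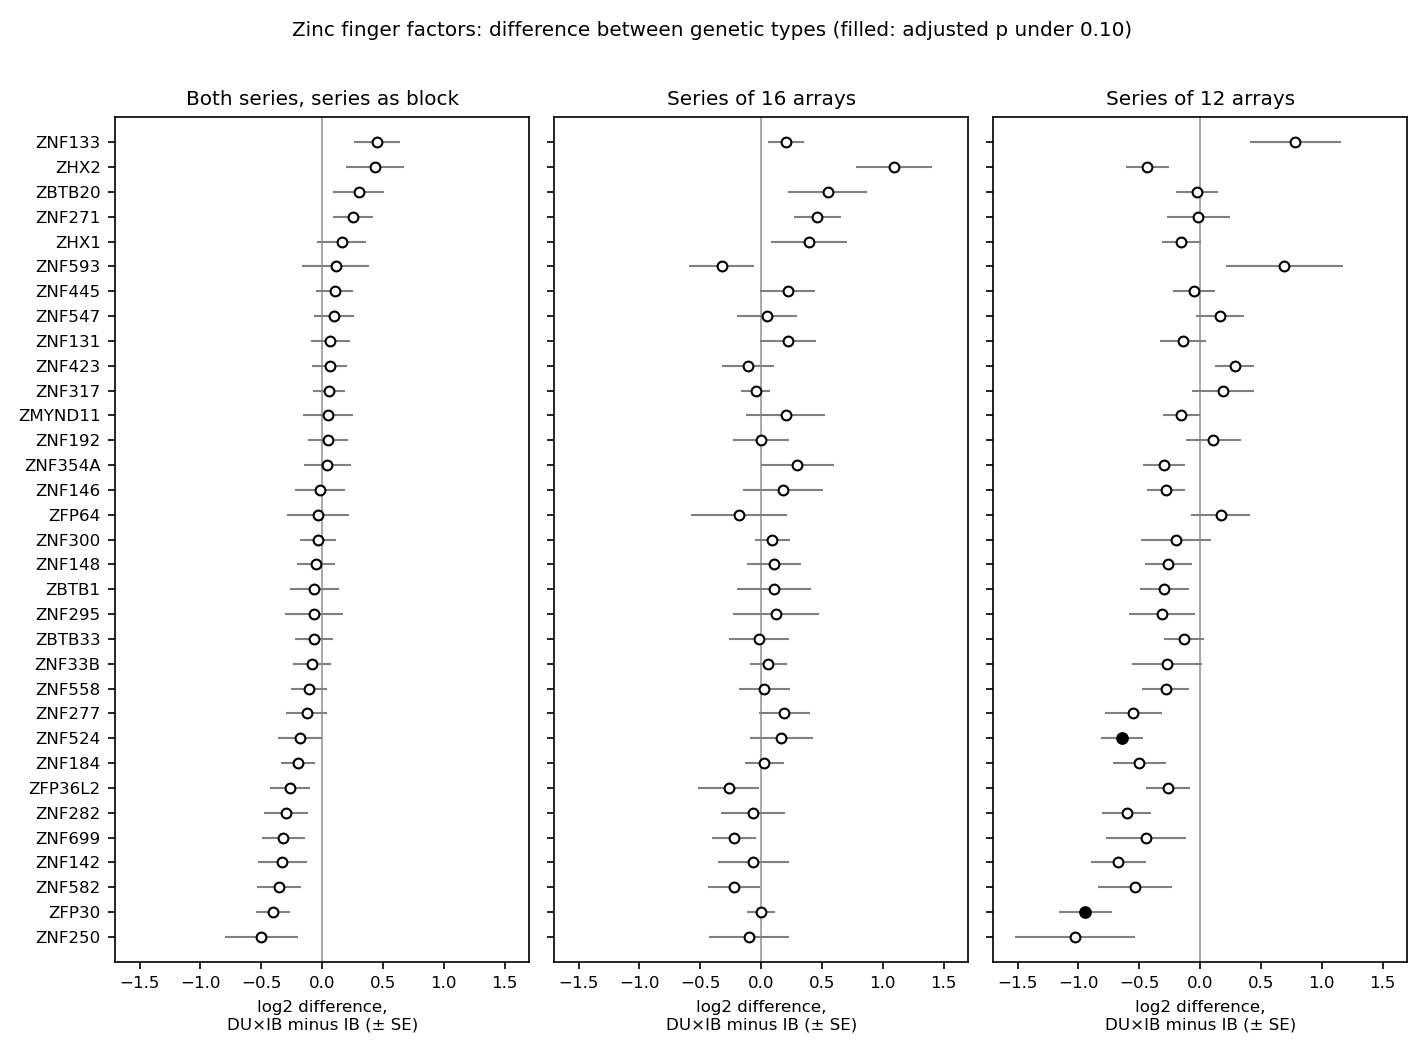
Log2 difference between genetic types, DU×IB minus IB, with its standard error, for the 33 zinc finger factors in both series with the series as a block (left), in the series of 16 arrays (middle) and in the series of 12 arrays (right). Filled points passed an adjusted p of 0.10 in limma, which were none on the left and in the middle and ZFP30 and ZNF524 on the right. Most points lie left of 0 in the series of 12 arrays (26 of 33) and right of it in the series of 16 (20 of 33).

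Among the members with the largest positive differences was ZNF133, a KRAB protein. Its log2 level was between 2.46 and 4.87 with a median of 2.68 in DU×IB piglets, against 1.958 to 3.45 with a median of 2.48 in IB piglets. The DU×IB piglets lay above the IB median in 11 of 14 cases, and the difference was 0.45 ± 0.19 (SE; limma p = 0.0233, adjusted p = 0.268). ZHX2, a repressor that silences alpha-fetoprotein in the mouse liver after birth, was between 4.58 and 7.04 with a median of 5.08 in DU×IB piglets, against 3.90 to 5.91 with a median of 4.70 in IB piglets. Here 12 of 14 DU×IB piglets were above the IB median of both series pooled, a count that the shift between series enters. In the series of 12, 5 of 6 DU×IB piglets were below every IB piglet of that series. With the series as a block the difference was 0.44 ± 0.24 (limma adjusted p = 0.432). ZBTB20, another repressor of alpha-fetoprotein in mouse liver, was between 5.02 and 7.40 (median 6.76) in DU×IB piglets and between 4.90 and 7.41 (median 6.41) in IB piglets, a difference of 0.30 ± 0.21 (limma adjusted p = 0.579). The probe set listed as ZNF271 gave 4.65 to 5.68 (median 5.25) in DU×IB piglets and 3.97 to 6.72 (median 4.93) in IB piglets, with a difference of 0.26 ± 0.16 (limma adjusted p = 0.537). ZHX1, the partner that forms dimers within the ZHX family, was between 5.99 and 7.84 (median 7.25) in DU×IB piglets and between 4.69 and 7.93 (median 6.88) in IB piglets, a difference of 0.16 ± 0.20 (limma adjusted p = 0.806). None of these differences passed the threshold.

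At the other end, ZNF250, a KRAB protein, was between 5.94 and 8.31 with a median of 7.28 in DU×IB piglets, against 6.16 to 10.92 with a median of 7.90 in IB piglets. The difference was -0.50 ± 0.30 (limma adjusted p = 0.502), with 11 of 14 DU×IB values under the median of IB piglets. The IB piglets 9 and 12 stood above all others, at 10.9 and 9.89. ZFP30, a KRAB factor that promotes adipocyte formation in mouse cells and the one member on the study's list of differential probe sets, had the smallest p of the members. The study had already called ZFP30 higher in IB piglets on these same arrays, by another test. Its low p and direction, here and below, are therefore no separate finding. ZFP30 was between 3.21 and 4.22 with a median of 3.41 in DU×IB piglets and between 3.35 and 4.93 with a median of 3.43 in IB piglets, a difference of -0.41 ± 0.14 (limma p = 0.00741, adjusted p = 0.156). ZNF582, a KRAB protein, was between 3.04 and 4.56 (median 3.80) in DU×IB piglets and between 3.37 and 5.49 (median 3.90) in IB piglets, with a difference of -0.36 ± 0.18 (limma adjusted p = 0.387). ZNF142 was between 3.08 and 4.68 (median 3.86) in DU×IB piglets and between 3.09 and 5.58 (median 3.96) in IB piglets, a difference of -0.33 ± 0.20 (limma adjusted p = 0.523). The probe set listed as ZNF699 gave 2.27 to 3.91 (median 2.51) in DU×IB piglets and 2.07 to 4.54 (median 2.82) in IB piglets, with a difference of -0.32 ± 0.18 (limma adjusted p = 0.446).

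ZNF423, the preadipocyte factor, was between 7.10 and 8.29 with a median of 7.51 in DU×IB piglets, against 6.80 to 8.46 with a median of 7.47 in IB piglets, and its difference was 0.06 ± 0.14 (limma adjusted p = 0.911). Of the other KRAB members, ZNF282, which was found as a repressor that binds a retroviral promoter, had a difference of -0.30 ± 0.18 and ZNF184 one of -0.20 ± 0.14, and the differences of ZNF300, ZNF317, ZNF33B, ZNF354A, ZNF547 and ZNF558 were between -0.11 and 0.10. All 13 KRAB members together had a median difference of -0.11, with 4 positive. Of the SCAN members, ZNF192 differed by 0.05 ± 0.16 and ZNF445, which protects imprinted loci from losing methylation in human and mouse, by 0.10 ± 0.15. The BTB members beside ZBTB20 were ZBTB1, needed for lymphoid development in the mouse, ZBTB33 (Kaiso, which binds methylated CpG), ZNF131 and ZNF295, with differences between -0.07 and 0.07. Of the C2H2 members, ZNF524 differed by -0.18 ± 0.18 and ZNF277 by -0.13 ± 0.17, while ZNF146, ZFP64, ZNF148 (a factor of GC-rich promoters) and ZNF593 lay between -0.05 and 0.11. ZMYND11 differed by 0.05 ± 0.20 and ZFP36L2, which destabilizes mRNA, by -0.27 ± 0.16, with 11 of 14 DU×IB piglets below its IB median.

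Within the series the genetic types stood differently. In the series of 12 arrays, 26 of 33 members were lower in DU×IB piglets with a median difference of -0.27, beside 55.1% and -0.05 over all probe sets. On the other 16 arrays, 13 of 33 were lower with a median of 0.06, beside 41.2% and 0.05. The difference changed sign between the series in 23 of 33 members and in 44.4% of all probe sets. In limma on the series of 12 alone, 2 of 33 members passed an adjusted p of 0.10, ZFP30 and ZNF524, beside 4.38% of all probe sets, and on the series of 16 alone 0 of 33 passed, beside 0.172%. At an unadjusted p under 0.05 there were 7 members in the series of 12, beside 21.2%, and 2 in the series of 16, beside 4.42%. The interaction of genetic type with series, chosen after the data were seen, passed an adjusted p of 0.10 for 0 of 5226 probe sets (0.0%). At an unadjusted p under 0.05 it stood at 6.37% of all probe sets and at 4 members, ZFP30, ZHX2, ZNF524 and ZNF277.

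ZHX2 carried the interaction that was largest in size among the members. On the 16 arrays of the first series the DU×IB piglets were between 4.58 and 7.04, 6 of 8 above every IB piglet, and the IB piglets were between 3.90 and 4.83. The difference there was 1.09 ± 0.31 (limma adjusted p = 0.414). In the series of 12 the order was the other way, with DU×IB piglets between 4.71 and 5.60 and IB piglets between 5.22 and 5.91, a difference of -0.44 ± 0.18 (limma adjusted p = 0.181). Put the other way, ZHX2 stood 0.38 higher in the series of 16 than in the series of 12 in DU×IB piglets, but its shift was -1.15 in IB piglets. The difference between both differences was 1.53 ± 0.40 (limma p = 0.000639, adjusted p = 0.573), and 1.47 after each array was centred on its median.

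ZFP30 was also lower in DU×IB piglets of the series of 12, while in the series of 16 the types lay together. All 16 arrays of the first series held it at 3.21 to 3.45, with DU×IB and IB piglets side by side and a difference of -0.00 ± 0.11. The SD there was only 0.071 in DU×IB and 0.035 in IB piglets. At such low levels, near background, a difference between the types may not be visible. Among the 12 later arrays, DU×IB piglets were between 3.34 and 4.22 and IB piglets between 3.90 and 4.93, and 5 of 6 DU×IB piglets were below every IB piglet. The difference was -0.94 ± 0.22 (limma adjusted p = 0.0732), and the interaction was 0.94 ± 0.23 (limma p = 0.000345, adjusted p = 0.573). This interaction cannot be told apart from the limit of low signal in the series of 16. ZNF524 was between 4.17 and 5.02 in DU×IB piglets and between 4.74 and 5.43 in IB piglets of the series of 12, a difference of -0.64 ± 0.17 (limma adjusted p = 0.0918), and it differed by 0.17 ± 0.26 in the series of 16. ZNF277 differed by -0.55 ± 0.24 in the series of 12 and by 0.19 ± 0.21 in the series of 16. The types did not separate for any member in either series, while they separated for 2.43% of all probe sets in the series of 12 and for 0.0765% in the series of 16. The part of the hybridization in these patterns was not tested, and that of the litters could not be, since piglets are not assigned to them.

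**Figure D2:**
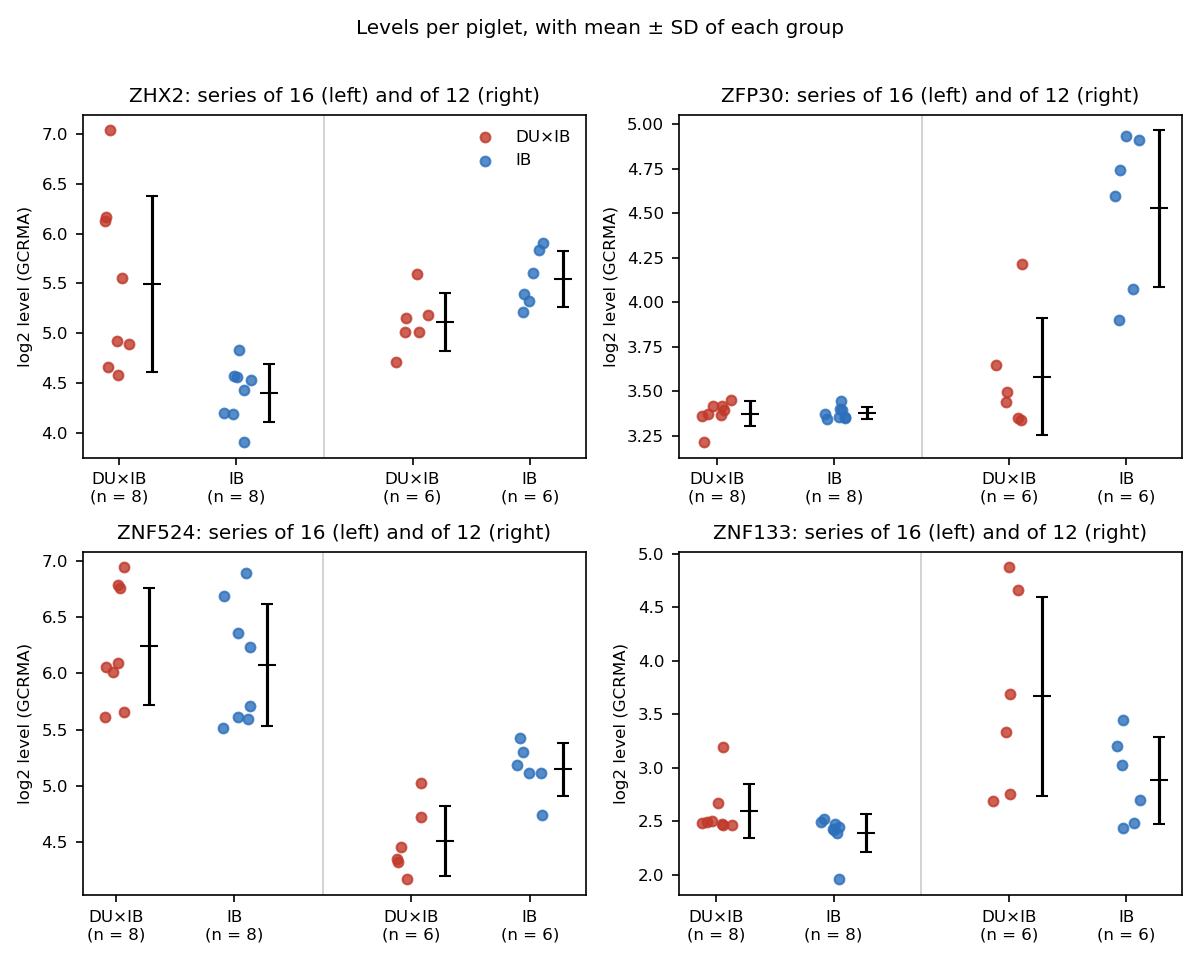
Log2 levels per piglet of ZHX2, ZFP30, ZNF524 and ZNF133 in the series of 16 arrays (left of the line, n = 8 per type) and in the series of 12 arrays (right, n = 6 per type), with the mean and SD of each group. ZHX2 is higher in DU×IB piglets of the first series and lower in those of the second, and ZFP30 lies at 3.90 to 4.93 in IB piglets of the second series and at 3.21 to 3.45 on all arrays of the first.

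Low levels limited what the arrays could show for 9 members, whose mean was under 4 on the log2 scale in both types: ZFP30, ZFP64, ZNF133, ZNF184, ZNF192, ZNF300, ZNF317, ZNF33B and ZNF699. Of these, 7 are KRAB members. The table held probe sets that had passed the study's filter on variation across arrays, so zinc finger genes that varied little were not analysed here. With dim probe sets left out, 24 members were tested and 0 were called, with 0 at an unadjusted p under 0.05, beside 2.91% of 4883 probe sets called.

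The corepressors with which KRAB and BTB proteins work were looked up by name. Of 24 symbols, 9 were measured by 10 probe sets, and limma called 0 of them. The median difference was 0.10, with 8 positive. TRIM28, the corepressor of KRAB proteins, differed by 0.10 ± 0.16, CBX3, a heterochromatin protein, by 0.08 ± 0.22, and NCOR1, which BTB proteins recruit, by 0.10 ± 0.12. HDAC1, a histone deacetylase, had the smallest p of the list with 0.29 ± 0.14 (limma adjusted p = 0.353). Another 17 probe sets with the same symbol prefixes stand outside the 310 factors, and limma called 0 of them, with a median of -0.10. At an unadjusted p under 0.05 there were 4 (ZNF7, ZNF326, ZNF106 and ZNF143, all lower in DU×IB piglets), beside 13.8% of all probe sets. The 17 were named partly from the study's differential list. The study had already called ZNF326 and ZNF143 higher in IB piglets on these same arrays, so their low p and direction are no separate finding. Of marker lists of other cells, 2 of 7 fibroblast symbols were named in the table, and both passed the threshold, higher in DU×IB piglets. COL1A1 differed by 1.21 ± 0.29 (limma adjusted p = 0.027) and POSTN by 1.29 ± 0.36 (limma adjusted p = 0.0634). The study had already called both on these same arrays, and its list was a source of the names, so their passing is no separate finding. The 7 macrophage probe sets were all lower in DU×IB piglets with a median of -0.43, and 0 passed. Mean levels per piglet of the 2 fibroblast genes were between 9.18 and 10.97 in DU×IB piglets and between 6.62 and 10.01 in IB piglets. The macrophage list averaged between 5.21 and 5.70 in DU×IB piglets and between 5.17 and 7.51 in IB piglets. Means of 3 adipocyte genes were between 10.31 and 11.36 in DU×IB and between 10.59 and 12.07 in IB piglets, with 0 passing. The other lists overlapped as well, at 7.60 to 8.88 in DU×IB and 7.17 to 9.18 in IB piglets for 3 endothelial genes and at 5.33 to 7.04 in DU×IB and 5.05 to 6.67 in IB piglets for 2 erythroid genes, with 0 passing in either. No lymphocyte gene was named. Their part in the members' levels was not tested.

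The spread of most members was smaller among DU×IB than among IB piglets, and the DU×IB piglets also came from fewer litters, which cannot be told apart from genetic type here. After centring within type and series, the SD was lower in DU×IB piglets for 28 of 33 members, with a median SD of 0.36 in DU×IB and 0.47 in IB piglets. Over all probe sets the share was 76.4%, with median SDs of 0.42 in DU×IB and 0.53 in IB piglets, so the members stood near the whole table. Without piglet 3 of both types the share was 24 of 33 members and 69.8% of all probe sets. ZFP64, which activates the leukaemia gene KMT2A in human cells, had an SD of 0.35 in DU×IB and 0.95 in IB piglets. ZFP36L2 had 0.24 in DU×IB and 0.56 in IB piglets. ZHX2 and ZNF133 went the other way, with SDs of 0.70 and 0.63 in DU×IB piglets, against 0.29 and 0.30 in IB piglets.

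To see which members moved together, Pearson correlations were computed for the 528 pairs within each type, over 14 piglets and after centring within each series. The median r was 0.065 in DU×IB and 0.128 in IB piglets. Among all pairs of probe sets it was 0.051 in DU×IB and 0.039 in IB piglets. An r of 0.5 or more was held by 81 of 528 pairs in DU×IB piglets, which is 15.3%, beside 14.2% of all pairs of probe sets, and by 86 pairs in IB piglets (16.3%), beside 13.4%. An r of -0.5 or less was held by 33 pairs (6.25%) in DU×IB piglets, beside 8.69%, and by 42 pairs (7.96%) in IB piglets, beside 8.34%. Without centring, on levels that hold the shift between series, the median r was 0.334 in DU×IB and 0.548 in IB piglets. Over all pairs of probe sets it was then 0.139 in DU×IB and 0.106 in IB piglets. By permutation within the series, 18 pairs in DU×IB and 17 in IB piglets passed an adjusted p of 0.10 over the 528 pairs, 17 and 13 of them positive. This test was not run over all pairs of the factors or of probe sets. The counts therefore have no share beside them and are not read as particular to the members. The counts depended on single piglets: 8 pairs passed in DU×IB piglets without piglet 4 or without piglet 6, and in IB piglets 3 passed without piglet 9 and 0 without piglet 6. The sign of r was the same in both types for 65.0% of the member pairs, beside 65.4% of all pairs of probe sets.

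**Figure D3:**
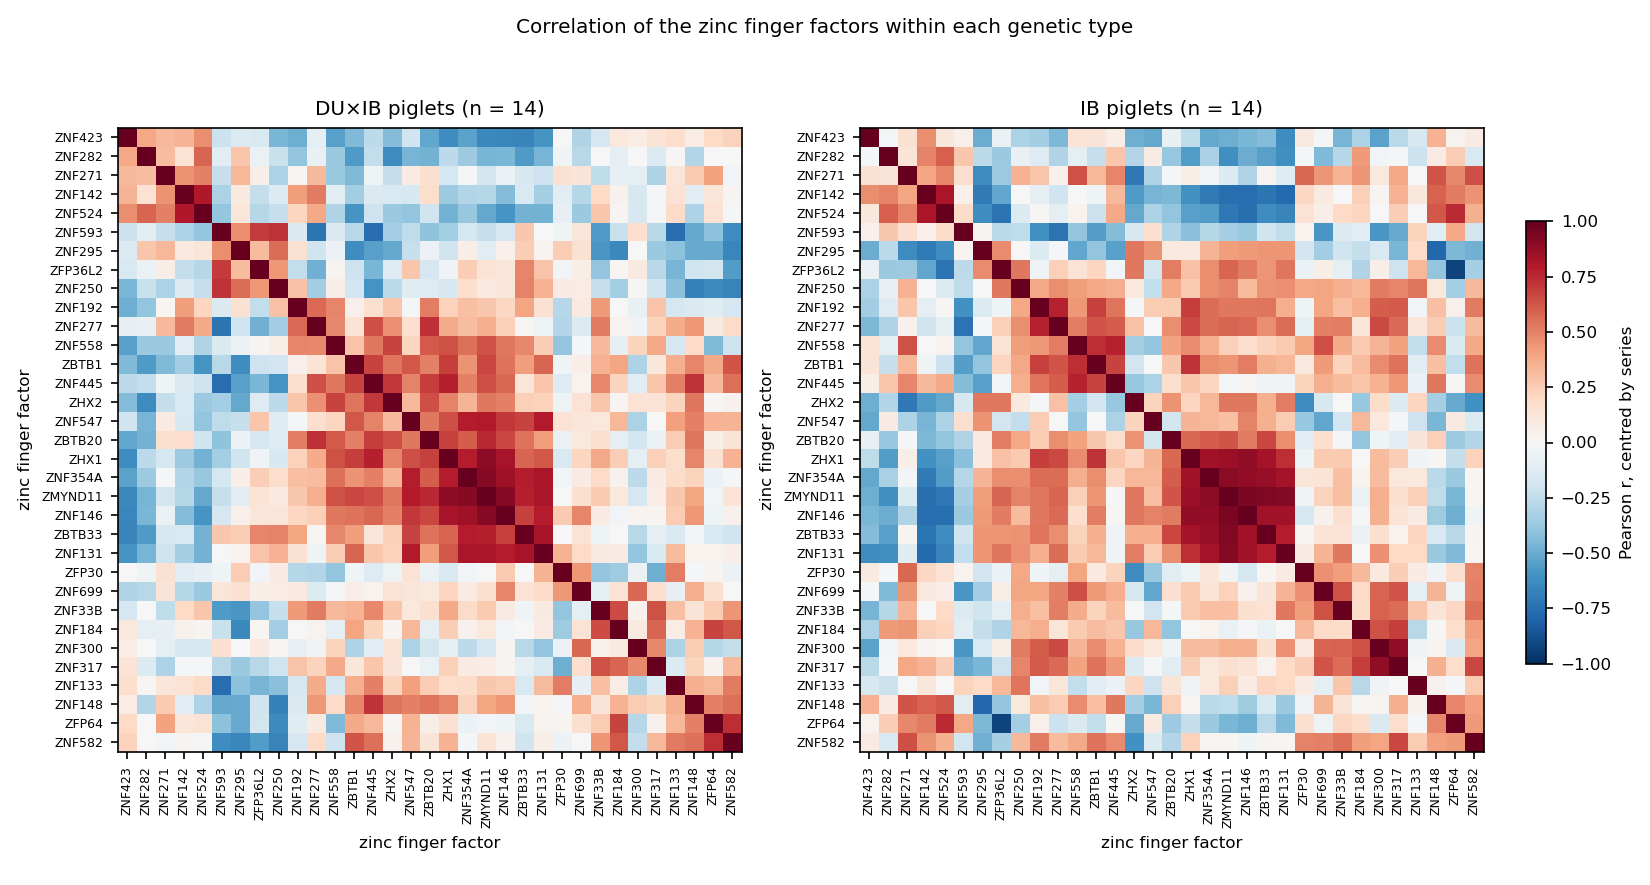
Pearson r between the 33 zinc finger factors within DU×IB piglets (left, n = 14) and within IB piglets (right, n = 14), with levels centred by series and both panels in the same order, clustered on the mean of both. The dark block of ZHX1, ZNF354A, ZMYND11, ZNF146, ZBTB33 and ZNF131 appears in both types, and ZNF423 is blue against it.

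Of the pairs past the threshold, 7 were shared by both types, which is 38.9% of the DU×IB pairs and 41.2% of the IB pairs, all with a positive r in both. The share of called pairs that both types hold was not computed over all probe sets. These calls depend on the measure: with Spearman's rho 4 pairs passed in DU×IB and 0 in IB piglets, so that none was shared, and with array median centring 6 passed in DU×IB and 7 in IB piglets. Of the 7 pairs shared with Pearson's r on levels centred by series, 6 joined ZMYND11, ZNF131, ZNF146, ZNF354A and ZBTB33 to each other. The remaining 1 joined ZNF142 to ZNF524. With ZHX1 added, a set of 6 members chosen after its values were seen, the 15 pairs had a median r of 0.816 in DU×IB piglets (0.579 to 0.913) and 0.857 in IB piglets (0.736 to 0.938). ZMYND11, the histone reader, and ZNF146, a short protein made almost wholly of fingers, had the highest r of all pairs in IB piglets and the next to highest in DU×IB piglets. Their r was 0.912 in DU×IB piglets (permutation p = 5e-05, adjusted p = 0.0132; Spearman rho 0.912, permutation p = 0.00029) and 0.938 in IB piglets (permutation p = 0.00029, adjusted p = 0.0383; rho 0.793, permutation p = 0.00483). Without the 2 piglets farthest from the median of ZMYND11 it was 0.826 in DU×IB and 0.729 in IB piglets. ZMYND11 with ZNF354A, a KRAB protein, had an r of 0.913 in DU×IB piglets (permutation adjusted p = 0.0132; rho 0.811, permutation p = 0.00143) and 0.903 in IB piglets (permutation adjusted p = 0.0433; rho 0.745, permutation p = 0.00318), and without the farthest 2 piglets 0.841 in DU×IB and 0.574 in IB piglets.

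The other leading pairs were of the same set. ZHX1 with ZMYND11 had an r of 0.895 in DU×IB piglets (permutation adjusted p = 0.0422; rho 0.934, permutation p = 0.00013) and 0.887 without the farthest 2 piglets, and 0.857 in IB piglets (permutation adjusted p = 0.107; rho 0.565, permutation p = 0.046), where it was 0.469 without them. ZNF146 with ZNF354A reached 0.851 in DU×IB piglets (permutation adjusted p = 0.0194; rho 0.763, permutation p = 0.00485) and 0.889 in IB piglets (permutation adjusted p = 0.12; rho 0.455, permutation p = 0.125). Without the farthest 2 piglets r was 0.723 in DU×IB but 0.14 in IB piglets, so the IB value rests on them. ZHX1 with ZNF146 had 0.826 (permutation adjusted p = 0.0783; rho 0.824, permutation p = 0.00306) and 0.724 without the farthest 2 in DU×IB piglets, and 0.885 (permutation adjusted p = 0.12; rho 0.666, permutation p = 0.0152) and 0.591 in IB piglets. ZMYND11 was joined to ZBTB33 in IB piglets at 0.929 (permutation adjusted p = 0.037; rho 0.833, permutation p = 0.00137) and to ZNF131 at 0.919 (permutation adjusted p = 0.0158; rho 0.82, permutation p = 0.00239), and without the farthest 2 piglets these were 0.819 and 0.824.

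Levels of these 6 members were also set against the median of the whole array. After centring by series, all 6 passed an adjusted p of 0.10 by permutation in DU×IB piglets (r between 0.743 and 0.89), and all but ZHX1 did in IB piglets (r between 0.822 and 0.94). ZHX1 in IB piglets had an r of 0.838 (permutation p = 0.0281, adjusted 0.114; rho 0.336, permutation p = 0.266) and 0.0648 without the farthest 2 piglets, so its r rests on them. ZMYND11, with the highest r in both types, correlated with the array median at 0.89 in DU×IB piglets (permutation p = 0.00032, adjusted over the 33 members 0.00407; rho 0.736, permutation p = 0.0177) and at 0.94 in IB piglets (permutation p = 0.00134, adjusted 0.0236; rho 0.833, permutation p = 0.00565), and without the farthest 2 piglets at 0.733 in DU×IB and 0.812 in IB piglets. An r of 0.7 or more with the array median was held by 7 of 33 members in DU×IB and 6 in IB piglets, beside 21.9% of all probe sets in DU×IB and 20.2% in IB piglets. An r of -0.7 or less was held by 1 of 33 members in DU×IB and 2 in IB piglets, beside 3.81% and 3.08%. With each array first centred on its median, the 15 pairs kept a median r of 0.654 in DU×IB and 0.739 in IB piglets. Without piglet 3 of both types, the arrays with the lowest medians, it was 0.683 in DU×IB and 0.611 in IB piglets. By series, the median was 0.845 in the series of 16 and 0.671 in the series of 12 for DU×IB piglets, and 0.898 and 0.488 for IB piglets, where 3 of the 15 pairs were negative in the series of 12. The part of array-wide intensity in this set was not tested further.

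ZNF142 and ZNF524, whose probe sets correlated at 0.802 in DU×IB piglets (permutation adjusted p = 0.0422; rho 0.758, permutation p = 0.00355) and at 0.814 in IB piglets (permutation adjusted p = 0.0669; rho 0.692, permutation p = 0.0156), opposed the 6 members. Without the farthest 2 piglets their r was 0.66 in DU×IB and 0.735 in IB piglets, and it was between 0.798 and 0.822 in each series of each type. Their 12 pairs with the 6 members were all negative in both types, with a median r of -0.408 in DU×IB and -0.710 in IB piglets. The 12 pairs are not independent, since the members on each side correlate with each other. In DU×IB piglets none of the 12 passed, as the only called pair of either was the one joining them. In IB piglets ZNF142 had 1 called pair, again that one, and ZNF524 had 2, so at most 1 of the 12 passed. The negative sign did not hold within each series. In DU×IB piglets 1 of the 12 pairs was positive in the series of 16 and 3 were in the series of 12. In IB piglets the 12 pairs were between -0.986 and -0.675 in the series of 16 and all positive, between 0.206 and 0.983, in the series of 12. Both probe sets were also negative with the array median, to which the 6 members were positive. ZNF142 had an r of -0.48 with it in DU×IB and -0.836 in IB piglets, and ZNF524 -0.745 and -0.79. With each array centred on its median, the 12 pairs had a median r of -0.400 in DU×IB and -0.649 in IB piglets. The part of array-wide intensity in this opposition was not tested further. ZNF423 was also negative with all 6 members, with a median r of -0.636 in DU×IB and -0.474 in IB piglets. Here all 6 pairs were negative in both series of both types, but ZNF423 had 0 called pairs in either type. The 6 pairs are not independent, since the 6 members correlate with each other. Without piglet 3 of both types the median was -0.391 in DU×IB and -0.454 in IB piglets, and with array median centring -0.650 and -0.698. With the array median itself ZNF423 had an r of -0.598 in DU×IB and -0.333 in IB piglets.

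The lowest correlations had no member of the 6 except ZNF131. In DU×IB piglets all 3 were with ZNF593: ZNF445 at -0.761 (permutation p = 9e-05, adjusted p = 0.0158; rho -0.785, permutation p = 0.0001), ZNF133 at -0.758 (permutation adjusted p = 0.259; rho -0.807, permutation p = 0.0103) and ZNF277 at -0.727 (permutation adjusted p = 0.109; rho -0.754, permutation p = 0.0028). Without the farthest 2 piglets these were -0.695, -0.65 and -0.62. In IB piglets the same 3 pairs were at -0.433, 0.22 and -0.736, and ZNF277 with ZNF593 was negative in each series of each type. In IB piglets the lowest was ZFP36L2 with ZFP64 at -0.929 (permutation p = 6e-05, adjusted p = 0.0158; rho -0.811, permutation p = 0.00193), and -0.857 without the farthest 2 piglets. ZNF148 with ZNF295 followed at -0.789 (permutation adjusted p = 0.0979; rho -0.829, permutation p = 0.00132), -0.65 without the farthest 2, with -0.798 in the series of 16 and -0.761 in the series of 12. ZNF131 with ZNF142 was at -0.776 (permutation adjusted p = 0.107; rho -0.688, permutation p = 0.0153) and -0.417 without the farthest 2, and it was -0.986 in the series of 16 but 0.206 in the series of 12. ZNF300 with ZNF317, both dim KRAB members, was the one leading positive pair outside the 6 members, with 0.89 in IB piglets (permutation adjusted p = 0.156; rho 0.613, permutation p = 0.0715), 0.724 without the farthest 2, and -0.262 in the series of 16 against 0.981 in the series of 12.

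**Figure D4:**
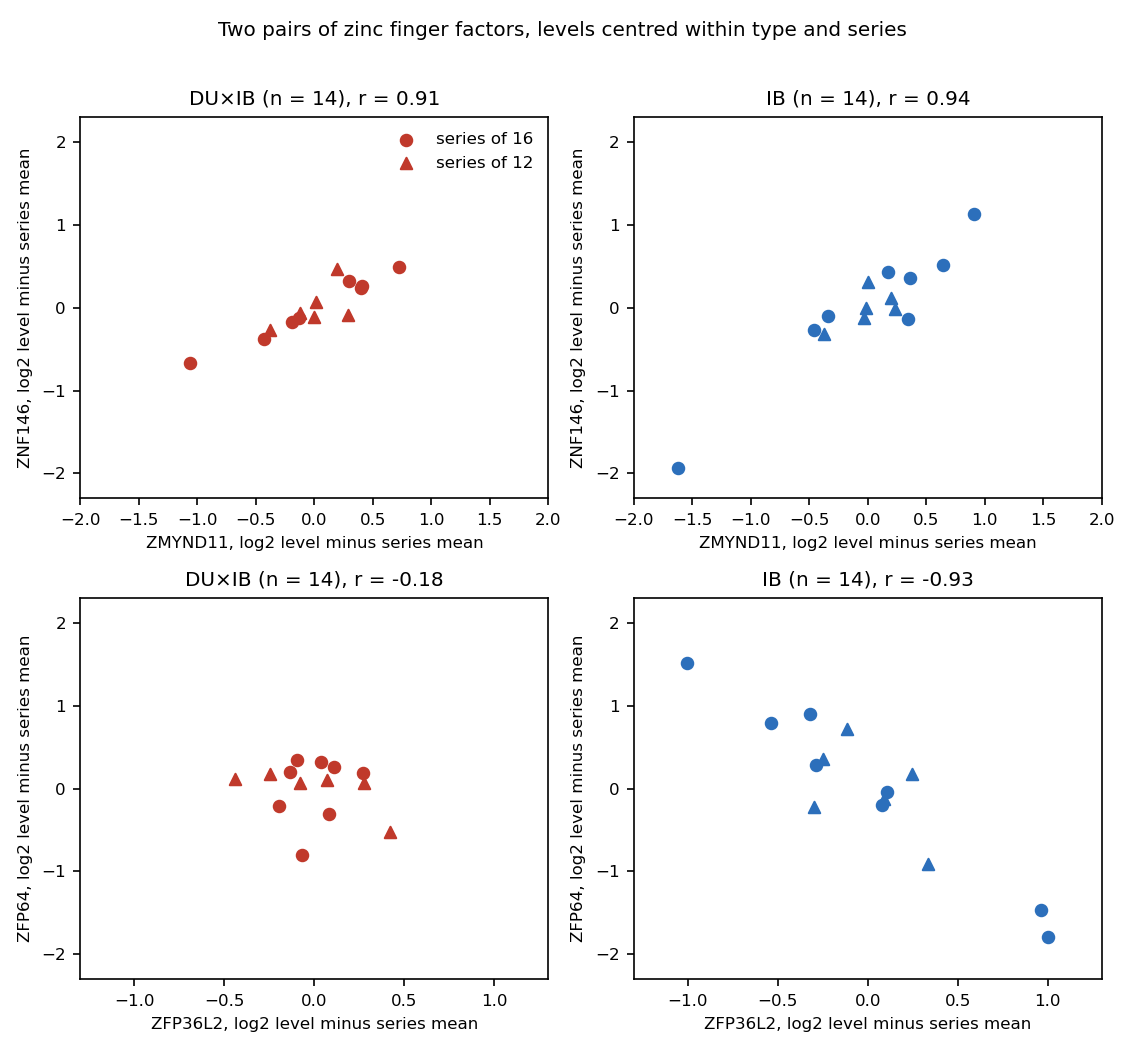
Log2 levels minus the mean of their type and series for ZMYND11 and ZNF146 (top) and for ZFP36L2 and ZFP64 (bottom), in DU×IB piglets (left) and IB piglets (right), circles for the series of 16 arrays and triangles for the series of 12. The top pair rises together in both types (r = 0.91 and 0.94), and the bottom pair falls along a line in IB piglets (r = -0.93) but not in DU×IB piglets (r = -0.18).

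Whether pairs were joined differently in the genetic types was tested by Fisher's z. None of the 528 pairs passed an adjusted p of 0.10, and 19 pairs (3.60%) were under an unadjusted p of 0.05. The pair with the largest z was ZFP36L2 with ZFP64, with an r of -0.184 in DU×IB and -0.929 in IB piglets (z = 3.27, p = 0.00107, adjusted p = 0.563). ZFP36L2 was between 9.05 and 10.4 in DU×IB piglets and between 8.51 and 10.6 in IB piglets, and in IB piglets 1 and 6 of the series of 16, where it was at 10.5, ZFP64 was at 2.90 and 2.57. In the series of 16 the r of this pair was 0.243 in DU×IB and -0.986 in IB piglets, and in the series of 12 it was -0.697 in DU×IB and -0.519 in IB piglets. ZHX2 with ZNF445 had an r of 0.704 in DU×IB and -0.378 in IB piglets (z = 2.85, adjusted p = 0.674), ZNF133 with ZNF593 -0.758 in DU×IB and 0.22 in IB piglets (z = -2.72), ZHX2 with ZNF558 0.676 in DU×IB and -0.34 in IB piglets (z = 2.63) and ZNF250 with ZNF593 0.72 in DU×IB and -0.256 in IB piglets (z = 2.61). Without centring both ZHX2 pairs were positive in both types, at 0.307 in DU×IB and 0.547 in IB piglets with ZNF445 and at 0.33 in DU×IB and 0.552 in IB piglets with ZNF558.

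The regulatory impact factors of the study's methods score how a factor's correlations with a list of differential genes change between the types. RIF1 weighs the squared change of correlation by the level and the difference of each listed gene, and RIF2 takes the difference between the types of the squared product of level and correlation. Both were computed for the 310 factors against the listed probe sets (166 with a positive and 105 with a negative difference) with DU×IB as the first condition, and given as z-scores over the 310 factors. The list had been chosen by the study on these arrays, so the scores are a description with no test. With levels centred by series, 2 of 33 members had a score outside the central 95% of a standard normal distribution, here called extreme, beside 28 of 310 factors (9.03%). ZNF148 had a RIF1 of 2.65 (rank 7 by size), and it ran from 1.65 to 3.29 when single piglets were left out. ZNF250 had a RIF1 of 2.33 (rank 9) and a RIF2 of -2.06 (rank 14), with ranges of 1.2 to 3.22 and -2.31 to -1.14. ZNF250 correlated with 30 of the listed probe sets at 0.7 or more in size in IB piglets, 12 positive and 18 negative, and in DU×IB piglets with 5 positive and 1 negative. Of the listed probe sets higher in DU×IB piglets, the median r with ZNF250 was 0.141 in DU×IB and -0.356 in IB piglets. Fisher's z called 0 of 8942 pairs of a member with a listed probe set, with 441 pairs (4.93%) at an unadjusted p under 0.05, beside 5.44% over all 310 factors.

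Which members stood out depended on the centring and on the measure of correlation. On uncentred levels 3 of 33 members were extreme, beside 10.0% of the factors. ZHX2 had the RIF2 largest in size of all 310 factors, -3.39, followed among the members by ZNF277 at -2.69 (rank 4) and ZFP30 at -2.36 (rank 9). Centred by series, these were 0.32 (rank 243), -0.25 (rank 253) and -0.85 (rank 123). The study itself reported ZHX2 as the factor with its most extreme RIF2 and ZNF277 among its extreme ones. Both were positive there, and the sign depends on which type is the first condition. ZHX2, ZNF277 and ZFP30 had an unadjusted interaction p under 0.05 and did not pass after adjustment. ZNF524, which was like them in this, had an uncentred RIF2 of 1.03. Uncentred, ZHX2 correlated at 0.7 or more in size with 1 of the listed probe sets in DU×IB and with 72 in IB piglets. Centred, it did so with 4 in DU×IB and 3 in IB piglets. The uncentred RIF1 of ZNF148 was 1.27 and that of ZNF250 1.59. With each array centred on its median before the centring by series, 3 of 33 members were extreme, beside 8.71% of the factors. ZNF250 had 2.43 and -2.22 and ZNF148 a RIF1 of 0.86, while ZNF547 with a RIF1 of 3.16 and ZNF699 with its RIF2 were extreme. With Spearman's rho on levels centred by series, 2 of 33 members were extreme, beside 7.42% of the factors. They were ZNF148 (RIF1 2.34) and ZNF699 (RIF1 2.41), and ZNF250 was not, at 1.46 and -1.24. Without IB piglet 9 the RIF1 of ZNF250 was 1.24. The SE of RIF1 from leaving out single piglets (jackknife) was 2.25 for ZNF250 and 1.77 for ZNF148.

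**Figure D5:**
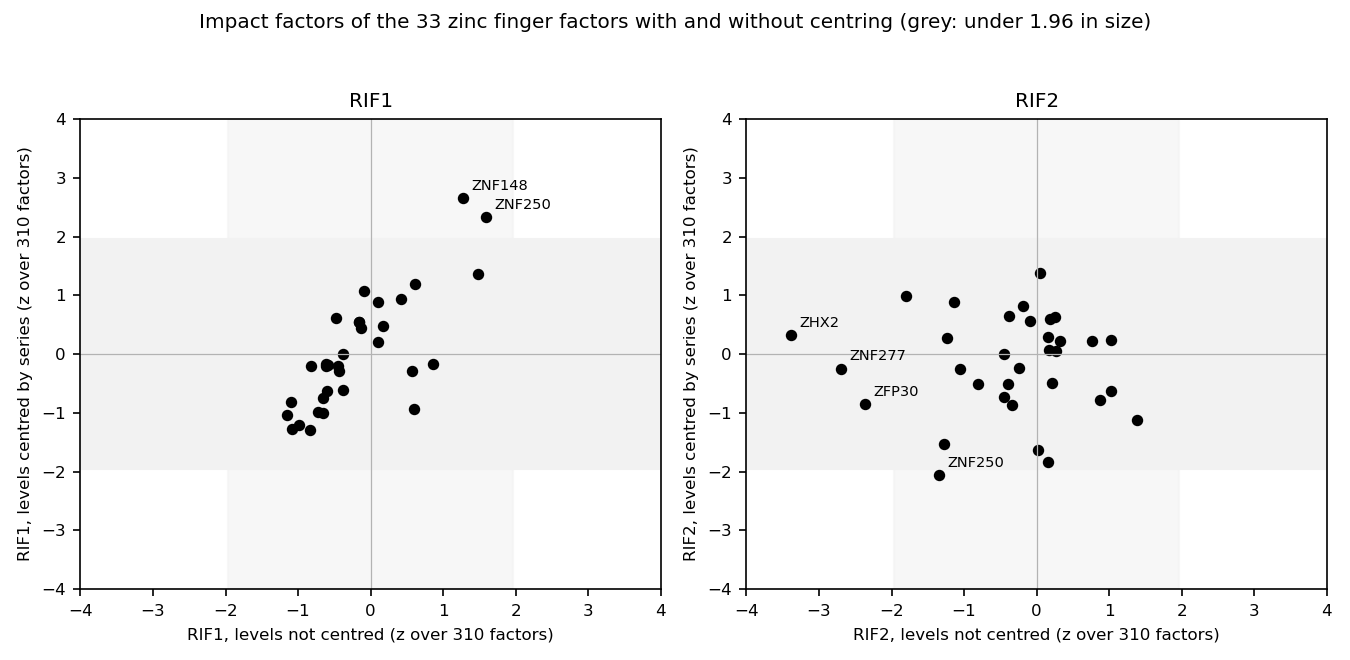
RIF1 (left) and RIF2 (right) of the 33 zinc finger factors, as z-scores over 310 factors, from levels centred by series (vertical axis) against levels that were not centred (horizontal axis), with the members extreme on either axis named. ZHX2 lies at -3.39 without and 0.32 with centring, and ZNF250 at -1.34 and -2.06.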

How the data were processed

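The members and lists were chosen with earlier results of these data known. Per the labels and the study's methods, total RNA of 28 muscles was hybridized to Affymetrix porcine arrays. The authors deposited log2 values, GCRMA normalized (background correction by probe sequence, quantile normalization and summary per probe set), of 5226 probe sets that passed their filter on variation. The hybridization series was taken from the array numbers (1 to 8 and 9 to 14 of each type) and checked on 3 bacterial spike-in probe sets. The array number limits the precision. From the deposited values, limma 3.58.1 in R 4.3.3 fitted genetic type and series, with Benjamini-Hochberg adjustment over 5226 probe sets and a threshold of 0.10. Correlations used levels centred within type and series, 100000 permutations within the series, two-sided, adjusted over 528 pairs, and Fisher's z with 1 piglet less per type. Scripts were tested on simulated data. All members are named. Values in full went to members past the threshold, the 5 largest differences in each direction, extreme impact factors, the 5 highest and 3 lowest correlations per type, the 5 pairs most different between types, and ZNF423, ZBTB20, ZHX1 and ZHX2. Alternatives were no block, a replicate block, array median centring, quantile normalization, another prior, array weights, dim probe sets left out, a threshold of 0.05, single series, Spearman and single piglets left out. Piglets are separate animals, but some share a litter; the litter of each piglet is not known here, so no fit holds it and p-values may be too small.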

Additional observations from a re-analysis of the deposited data

How the results depend on the processing

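Of the differences of members given in full, 108 values under the alternatives kept direction and side of the threshold. ZFP30 passed with quantile normalization and with array weights, the 1 member called in each, and 2 members passed on the 12 arrays alone. There the sign turned for ZBTB20 (-0.03), ZHX1 (-0.16), ZHX2 (-0.44) and ZNF271 (-0.01), and in the series of 16 for ZNF148 (0.10) and ZNF423 (-0.11). Called probe sets, 145 in all, numbered 52 without the block, 276 with array weights, 9 and 229 in the series of 16 and of 12, and 80 at an adjusted p under 0.05. Leaving out single piglets gave 103 to 221 (221 without IB piglet 4) and 0 members each time. The median r was 0.334 in DU×IB and 0.548 in IB piglets without centring, and in IB piglets 0.066 in the series of 16 and 0.300 in the series of 12, with ranges of 0.038 to 0.089 in DU×IB and 0.097 to 0.16 in IB piglets when single piglets were left out. Called pairs numbered 227 in DU×IB and 363 in IB piglets without centring, 6 and 7 with array median centring, and 4 and 0 with Spearman's rho, and 8 to 21 and 0 to 22 with single piglets left out. Pairs that differed between the types were 2 with Spearman's rho and 0 to 1 with single piglets left out. Members with an extreme impact factor were 1 without piglet 3 of both types, an alternative chosen after the data were seen, and 1 to 4 with single piglets left out (1 without IB piglet 1 or 3, 4 without IB piglet 14). The causes were not tested. Array numbers do not pair the piglets: same-numbered piglets correlated between -0.326 and 0.538, 2 of 14 pairs over 0.1 and 1 of 14 best with its own number. With the number as a replicate block, 145 probe sets and 0 members were called. Signal near background limits the 9 dim members.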
